A study of Mus musculus with 12 samples.

Results

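Genes that repair DNA double-strand breaks, or that signal such breaks to the cell cycle, were followed across 4 Foxo1 genotypes of a murine Burkitt lymphoma cell line. The 41 listed genes serve homologous recombination, end resection, damage checkpoints, the Fanconi anaemia pathway, the marking of chromatin at breaks, non-homologous end joining and poly(ADP-ribose) synthesis, and Mgmt, a direct reversal enzyme, was listed with them. They were chosen by gene symbol in the platform annotation, and the probe set of highest mean over the 12 arrays stood for each gene. Of the 41, 38 were among the 18194 genes that had a probe set named for 1 gene. No probe set was named for Xrcc2, Rbbp8 or Dclre1c alone, and these genes were not analysed here. The 38 measured genes also passed the filter on dim genes, a level above the array's median on at least 3 arrays, which kept 11458 genes. A gene can pass that filter through 1 genotype.

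Each genotype was measured on 3 arrays of total RNA. Cells labelled wt-/mt- had lost both the wild-type allele and the T24P mutant allele of Foxo1, wt-/mt+ cells kept only the mutant allele, wt+/mt- cells kept only the wild-type allele, and wt+/mt+ cells carried both. Editing of the line BL#19 was done with CRISPR/Cas9. The forkhead factor FOXO1 leaves the nucleus once the kinase AKT phosphorylates it, and the mutated threonine is one of the AKT sites. Whether the 3 arrays of a genotype go back to separate clones or cultures is not given in the sources used here, nor is the place of the edit. The p-values thus reflect array-to-array spread, part of which may be technical.

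Values are deposited RMA levels on a log2 scale, between 3.09 and 15.57, and the medians of the 12 arrays lay between 6.08 and 6.25. The Foxo1 probe set read 10.23, 9.39 and 10.34 in wt-/mt-, 11.57, 11.16 and 11.64 in wt-/mt+, 12.10, 11.92 and 11.59 in wt+/mt- and 11.56, 11.63 and 11.72 in wt+/mt+. It was lower in wt-/mt- than in wt+/mt+ (log2 change -1.65, SE 0.23, adjusted p = 0.00122), while the levels of both single losses overlapped those of wt+/mt+, so RNA level does not check which allele they lack. All 5 B cell markers on the array lay above the array median, with a mean level of 10.73 to 11.69 in wt-/mt- and 11.45 to 11.74 in the other genotypes. Cd79b (-0.96, adjusted p = 0.0170) and Cd22 (-0.84, adjusted p = 0.0272) were lower in wt-/mt- than in wt+/mt+, and the median of the 5 relative to the wt+/mt+ mean was -0.10, -0.49 and -1.10 on the wt-/mt- arrays and between -0.12 and 0.11 on the other arrays. The part of such a shift in the changes of the repair genes was not tested. Of the markers of other cells, 0 of 3 for NK cells, 0 of 2 for erythroid cells, 3 of 5 for T cells, 2 of 6 for myeloid cells and 1 of 5 for stromal cells lay above it. Spread was widest among the wt-/mt- arrays, whose median SD over genes was 0.261. It was 0.111 for wt-/mt+, 0.133 for wt+/mt- and 0.0952 for wt+/mt+. The log2 ratio of 3' to 5' actin signal, a sign of RNA quality, was 2.17 and 1.71 on wt+/mt- replicates 1 and 2 and between 1.06 and 1.29 on the other arrays. In such bulk RNA, fewer cells that express a gene and less RNA per cell cannot be told apart.

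A double-strand break can be repaired from the sister chromatid by homologous recombination, which operates in S and G2 phase, or by direct ligation of its ends, which operates throughout the cell cycle. The kinases ATM and ATR phosphorylate the histone variant H2AX around the break and activate the checkpoint kinases, which hold the cell cycle until repair is done. Burkitt lymphoma arises from germinal center B cells, which cycle fast and whose antibody genes are mutated and cut on purpose, so breaks and replication stress are common in the cell of origin. Recombination, Fanconi and checkpoint genes are also known for expression that peaks in dividing cells.

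After loss of both alleles (wt-/mt- against wt+/mt+), 9 of the 38 genes were higher and 2 were lower at an adjusted p under 0.05, the threshold for a call. The called share was 28.9% of the repair genes, against 22.1% of all kept genes, and the difference between these shares was not tested. The 28.9% includes Mgmt and Cdc14a, which were listed with earlier results of these arrays known, so it is no independent finding. In the same comparison 12.2% of all kept genes were called higher and 9.94% lower. The rises were H2ax, Fancd2, Rnf168, Chek1, Fancg, Mdc1, Rad54l, Fanci and Blm, and the falls were Mgmt and Cdc14a. The median change was 0.26 over the repair genes and 0.05 over all kept genes. Leaving out 1 array moved the count of 11 called genes over a wide range. It was 4 without wt+/mt+ replicate 2 and 4 without wt+/mt+ replicate 3, 7 without wt+/mt+ replicate 1, 7 without wt-/mt- replicate 1 and 19 without wt-/mt- replicate 2. The test shares 1 estimate of the spread among the genotypes. When each genotype received its own weight, the calls were 3, namely H2ax, Mgmt and Cdc14a. The shares of all kept genes called in these other fits are not given here. The counts thus do not show whether calls of repair genes moved more than those of other genes.

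**Figure D1:**
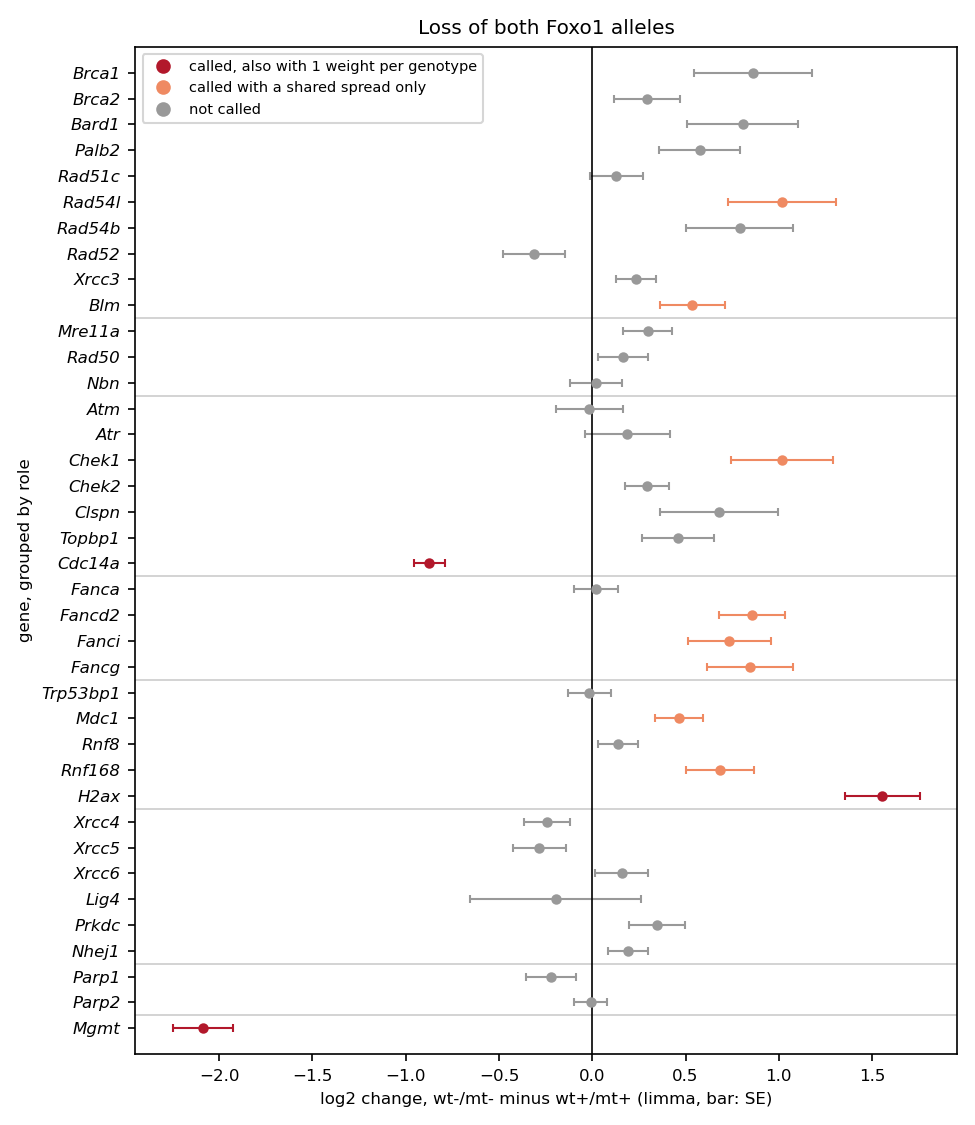
Log2 change of the 38 repair genes after loss of both Foxo1 alleles, wt-/mt- minus wt+/mt+, from the limma fit (points, estimate; bars, SE), grouped by role from recombination at the top to Mgmt at the bottom. H2ax (1.55), Cdc14a (-0.87) and Mgmt (-2.09) were also called with 1 weight per genotype, and the recombination, Fanconi and checkpoint genes lie mostly right of 0.

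Removing the wild-type allele where the mutant allele was already gone (wt-/mt- against wt+/mt-) gave 8 rises and 2 falls, a called share of 26.3% of the repair genes against 14.6% of all kept genes. Of all kept genes, 6.35% were called higher and 8.22% lower. The rises were H2ax, Fancd2, Chek1, Mdc1, Rad54l, Brca1, Rnf168 and Fanci, with Mgmt and Cdc14a again lower. This count depended on the 2 wt+/mt- arrays with the high actin ratio. It was 4 without replicate 1 of them alone, 3 without replicate 2 alone, and 15 without wt-/mt- replicate 2. Leaving out both wt+/mt- arrays with the high actin ratio leaves 1 array of that genotype, so no count is given for that fit. Removing the mutant allele where the wild-type allele was already gone (wt-/mt- against wt-/mt+) gave 2 rises, H2ax and Fancg, and 4 falls, Mgmt, Cdc14a, Xrcc4 and Xrcc5. That is a called share of 15.8% of the repair genes against 20.8% of all kept genes, of which 9.75% were called higher and 11.1% lower. The 3 comparisons share the wt-/mt- arrays and are not independent of each other. Mgmt and Cdc14a, called in each of them, were listed with earlier results of these arrays known. The called shares of the repair genes are thus no independent finding.

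**Figure D2:**
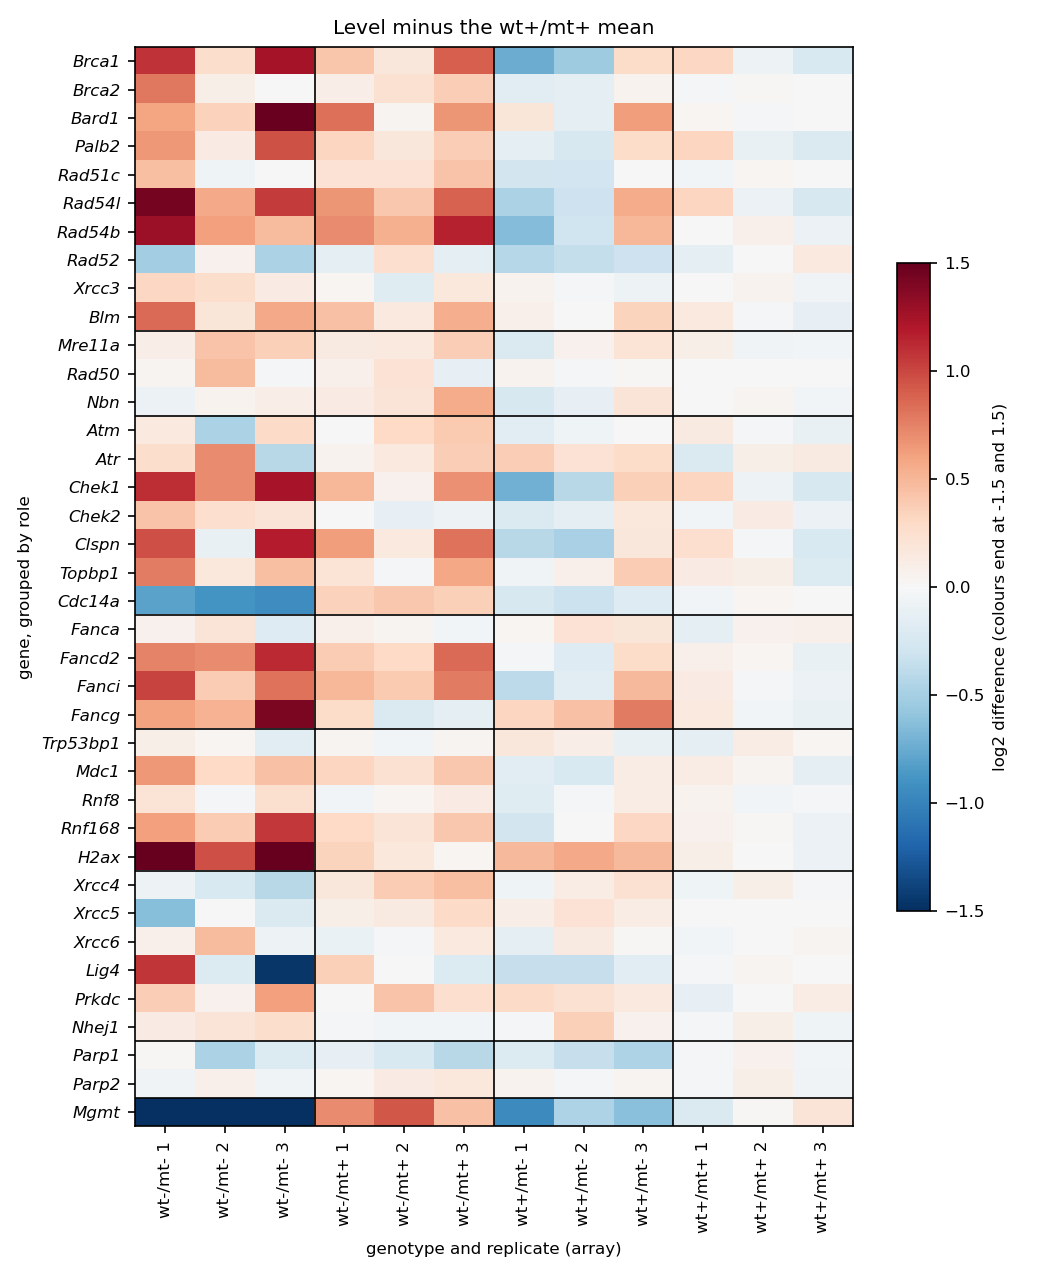
Level of each of the 38 repair genes (rows, by role) on each of the 12 arrays (columns, by genotype and replicate), as log2 difference from the mean of the 3 wt+/mt+ arrays, with colours ending at -1.5 and 1.5. The wt-/mt- arrays are red over most recombination, Fanconi and checkpoint genes and blue for Cdc14a and Mgmt, and Lig4 differs between the wt-/mt- arrays.

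Mgmt encodes the methyltransferase that takes alkyl groups off guanine and is used up in doing so. It read 7.80, 7.86 and 7.86 in wt-/mt-, 10.64, 10.86 and 10.36 in wt-/mt+, 8.96, 9.46 and 9.30 in wt+/mt- and 9.71, 9.95 and 10.12 in wt+/mt+. The 4 genotypes did not overlap, with wt-/mt- lowest and the cells that kept only the mutant allele highest. Mgmt was 4.25-fold lower in wt-/mt- than in wt+/mt+ (log2 change -2.09, SE 0.16, adjusted p = 4.26e-05), 2.65-fold lower than in wt+/mt- (-1.40, SE 0.16, adjusted p = 0.000538) and 6.88-fold lower than in wt-/mt+ (-2.78, SE 0.16, adjusted p = 1.61e-05). In the last of these comparisons it had the smallest p of all 11458 kept genes. These calls held under each of the 10 other settings and without any of the 12 arrays. Mgmt has 1 probe set on the array, so the setting with the mean of all probe sets left its levels unchanged. Mgmt stands among the listed genes because of results known earlier from these arrays, so its place in the list is no independent finding.

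RefSeq (GRCm38.p6) has 2 promoter windows for Mgmt. The bases before the start of the first (chr7:136894336-136894585, plus strand) are shown because Mgmt changed most, with CG dinucleotides in capitals.
Mgmt: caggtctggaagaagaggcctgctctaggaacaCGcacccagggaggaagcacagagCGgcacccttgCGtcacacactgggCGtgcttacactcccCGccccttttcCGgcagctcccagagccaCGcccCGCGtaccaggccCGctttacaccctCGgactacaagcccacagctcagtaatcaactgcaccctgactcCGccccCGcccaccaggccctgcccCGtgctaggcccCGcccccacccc
This stretch holds 15 CG dinucleotides and is 67.2% G or C. Neither the forkhead motif GTAAACA nor the E2F motif TTTNNCGC was found in either window on either strand. The forkhead core AAACA stands once in the second window, after its start, and not in the first.

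Cdc14a encodes a phosphatase that reverses phosphorylation by cyclin-dependent kinases. It read 8.56, 8.46 and 8.44 in wt-/mt-, 9.71, 9.77 and 9.72 in wt-/mt+, 9.12, 9.04 and 9.17 in wt+/mt- and 9.33, 9.39 and 9.37 in wt+/mt+. The genotypes stood in the order seen for Mgmt and did not overlap. Cdc14a was 1.83-fold lower in wt-/mt- than in wt+/mt+ (log2 change -0.87, SE 0.08, adjusted p = 0.000117), 1.54-fold lower than in wt+/mt- (-0.62, SE 0.08, adjusted p = 0.00125) and 2.37-fold lower than in wt-/mt+ (-1.25, SE 0.08, adjusted p = 1.70e-05). No left-out array ended these calls. The result belongs to 1 of its 3 probe sets. The second, with a mean level of 6.33, gave 0.07 for wt-/mt- against wt+/mt+ and -0.21 for wt-/mt- against wt-/mt+, and the third, with a mean of 4.42, gave -0.02 for the loss of both. Cdc14a, too, was listed with earlier results of these arrays known.

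The 250 bases before the outermost of its 3 annotated starts (GRCm38.p6, chr3:116428742-116428991, minus strand) are shown because this window holds most of its matches to the forkhead core, with its letters AAACA in capitals where it stands on either strand (TGTTT on the strand shown).
Cdc14a: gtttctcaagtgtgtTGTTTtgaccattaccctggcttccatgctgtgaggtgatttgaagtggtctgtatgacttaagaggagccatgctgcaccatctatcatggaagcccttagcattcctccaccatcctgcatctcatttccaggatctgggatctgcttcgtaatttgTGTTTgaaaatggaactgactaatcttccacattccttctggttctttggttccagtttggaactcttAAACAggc
The stretch holds 3 such cores, against 1 and 0 in the other windows of Cdc14a, and 1 CG dinucleotide, and 44.4% of its bases are G or C. AAACA is part of GTAAACA, and it occurred on either strand in 50.5% of all 32851 RefSeq promoter windows of 300 bases, so its presence is common.

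**Figure D3:**
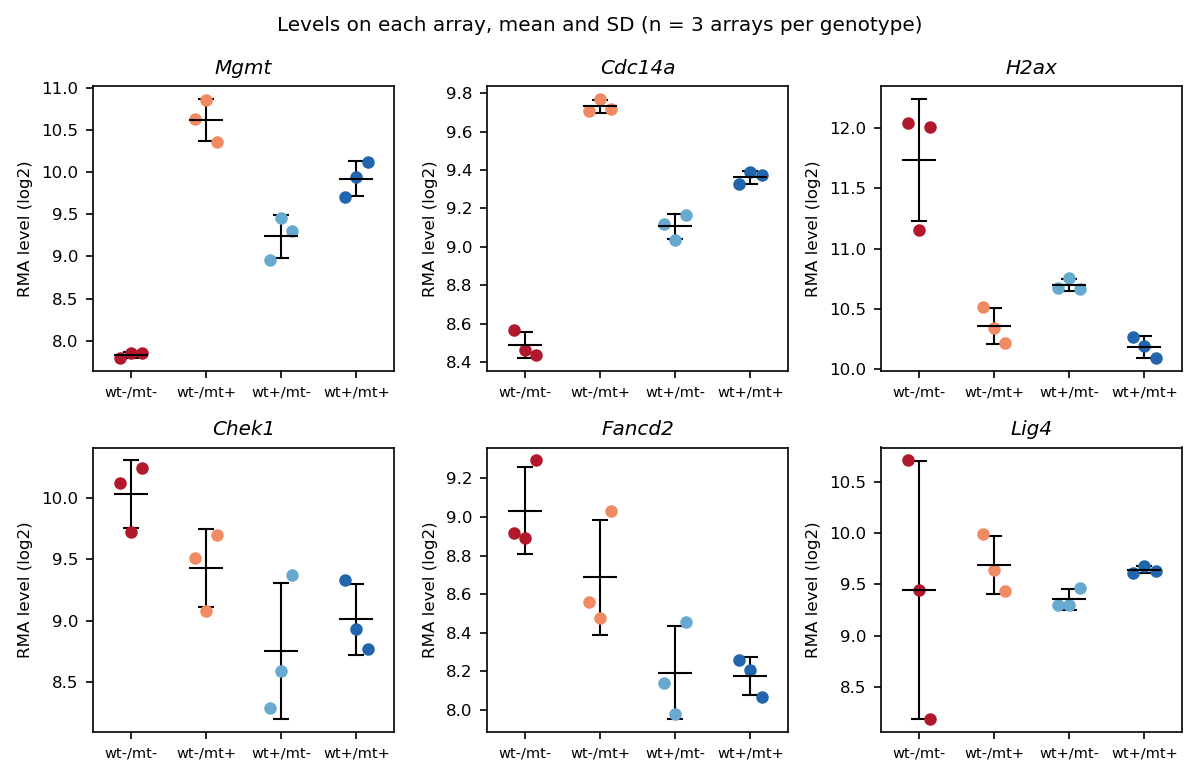
RMA level (log2) of 6 repair genes on each array (points), with the mean and SD of the 3 arrays of each genotype (bars). Mgmt and Cdc14a are lowest in wt-/mt- and highest in wt-/mt+, H2ax, Chek1 and Fancd2 are highest on average in wt-/mt-, and Lig4 spreads over 2.52 log2 units within wt-/mt-.

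H2ax encodes the histone variant whose phosphorylated form marks chromatin around a break. It read 12.05, 11.15 and 12.01 in wt-/mt-, 10.51, 10.34 and 10.22 in wt-/mt+, 10.67, 10.75 and 10.67 in wt+/mt- and 10.27, 10.19 and 10.09 in wt+/mt+. All wt-/mt- arrays lay above the others, replicate 2 of them well under the other 2. The array holds 1 probe set for H2ax, so no other probe set could be set beside it. H2ax was 2.94-fold higher in wt-/mt- than in wt+/mt+ (log2 change 1.55, SE 0.20, adjusted p = 0.000703), 2.05-fold higher than in wt+/mt- (1.04, SE 0.20, adjusted p = 0.00818) and 2.60-fold higher than in wt-/mt+ (1.38, SE 0.20, adjusted p = 0.00121). No left-out array ended these calls. The rise over wt+/mt- was no longer called when both wt+/mt- arrays with a high actin ratio were left out, which leaves 1 array. Between the single losses, H2ax averaged 10.36 ± 0.15 in wt-/mt+ and 10.70 ± 0.05 in wt+/mt- (SD, n = 3 each), and these arrays did not overlap.

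Mdc1 binds phosphorylated H2AX and recruits the ubiquitin ligases Rnf8 and Rnf168, whose marks bring in Trp53bp1. Mdc1 read 9.31, 8.96 and 9.10 in wt-/mt-, 8.98, 8.89 and 9.07 in wt-/mt+, 8.50, 8.43 and 8.78 in wt+/mt- and 8.77, 8.70 and 8.52 in wt+/mt+. Rnf168 read 9.33, 9.10 and 9.78 in wt-/mt-, 9.02, 8.91 and 9.13 in wt-/mt+, 8.45, 8.71 and 9.03 in wt+/mt- and 8.79, 8.74 and 8.63 in wt+/mt+. For both genes the wt-/mt- arrays lay above those of wt+/mt- and wt+/mt+ and overlapped those of wt-/mt+. Mdc1 rose by 0.46 over wt+/mt+ (SE 0.13, adjusted p = 0.0262) and by 0.56 over wt+/mt- (SE 0.13, adjusted p = 0.0171). Rnf168 rose by 0.68 over wt+/mt+ (SE 0.18, adjusted p = 0.0224) and by 0.67 over wt+/mt- (SE 0.18, adjusted p = 0.0319), but its dimmer second probe set gave -0.05 for the loss of both alleles. The call of Mdc1 for the loss of both ended without wt+/mt+ replicate 2, wt+/mt+ replicate 3 or wt-/mt- replicate 1, and that of Rnf168 without any 1 of the wt+/mt+ arrays. Over these omissions the changes ran from 0.37 to 0.48 for Mdc1 and from 0.64 to 0.72 for Rnf168.

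Trp53bp1, the reader that holds end resection back, stood at 11.16, 11.10 and 10.89 in wt-/mt-, 11.11, 11.03 and 11.11 in wt-/mt+, 11.24, 11.17 and 10.95 in wt+/mt- and 10.92, 11.18 and 11.10 in wt+/mt+. All 4 genotypes overlapped, and the change after loss of both alleles was -0.02 (SE 0.11, adjusted p = 0.934). Rnf8 changed by 0.14 (SE 0.11, adjusted p = 0.379). Of the 5 measured genes of this role, 3 were thus called higher and 2 were not called, beside 12.2% of all kept genes called higher.

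Homologous recombination was represented by 10 measured genes, of which 2 were called higher after loss of both alleles (12.2% of all kept genes were) and 7 had an unadjusted p under 0.05 (38.2% of all kept genes had). Their median change was 0.56. Rad54l, a motor protein that helps the recombinase invade the sister duplex, read 9.73, 8.86 and 9.34 in wt-/mt-, 8.96, 8.70 and 9.18 in wt-/mt+, 7.82, 7.98 and 8.85 in wt+/mt- and 8.61, 8.21 and 8.06 in wt+/mt+. Its wt-/mt- arrays lay above wt+/mt- and wt+/mt+, though replicate 2 of wt-/mt- and replicate 3 of wt+/mt- were nearly equal. Rad54l was 2.02-fold higher in wt-/mt- than in wt+/mt+ (log2 change 1.02, SE 0.29, adjusted p = 0.0292) and 2.13-fold higher than in wt+/mt- (1.09, SE 0.29, adjusted p = 0.0300). Its 3 brightest probe sets gave 0.86 to 1.02 for the loss of both. That call ended without wt+/mt+ replicate 2, wt+/mt+ replicate 3 or wt-/mt- replicate 1, with changes between 0.81 and 0.97 in these omissions.

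Blm, the helicase that takes recombination intermediates apart, read 9.35, 8.67 and 9.07 in wt-/mt-, 8.93, 8.64 and 9.04 in wt-/mt+, 8.57, 8.50 and 8.83 in wt+/mt- and 8.65, 8.46 and 8.37 in wt+/mt+. Every wt-/mt- array lay above wt+/mt+, the lowest by little. Its change of 0.53 after loss of both alleles (SE 0.17, adjusted p = 0.0491) was a call at the edge. It held without 1 of the 12 arrays, wt-/mt- replicate 2 (0.71), and ended without any of the other arrays.

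Brca1, which with its partner Bard1 promotes resection and loading of the recombinase, read 9.82, 9.00 and 9.98 in wt-/mt-, 9.15, 8.90 and 9.63 in wt-/mt+, 8.00, 8.21 and 9.02 in wt+/mt- and 9.05, 8.66 and 8.51 in wt+/mt+. The lowest wt-/mt- array lay below the highest array of each other genotype. Brca1 was 2.28-fold higher in wt-/mt- than in wt+/mt- (log2 change 1.19, SE 0.32, adjusted p = 0.0309), and this call ended without wt+/mt- replicate 1, wt+/mt- replicate 2, wt-/mt- replicate 1 or wt-/mt- replicate 3, each time with a change between 0.99 and 1.09. In that comparison the second probe set gave 0.51. The call also ended with that probe set, the mean of all probe sets, 1 weight per genotype or the actin ratio as a covariate. Against wt+/mt+ the change was 0.86 (SE 0.32, adjusted p = 0.0716), and the second probe set gave 0.34. Bard1 (0.81, adjusted p = 0.0720), Palb2, the bridge between Brca1 and Brca2 (0.58, adjusted p = 0.0783), and Rad54b (0.79, adjusted p = 0.0712) also missed the threshold for the loss of both alleles.

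Brca2, the loader of the recombinase and the uncalled gene of this role with the highest mean, read 9.57, 8.88 and 8.79 in wt-/mt-, 8.89, 9.02 and 9.16 in wt-/mt+, 8.62, 8.65 and 8.84 in wt+/mt- and 8.76, 8.80 and 8.80 in wt+/mt+. Only replicate 1 of wt-/mt- stood clear of the rest, and the change after loss of both was 0.29 (SE 0.18, adjusted p = 0.250). Rad51c changed by 0.13, Xrcc3 by 0.23 and Rad52 by -0.31 in that comparison, with adjusted p-values of 0.534, 0.128 and 0.190. The 3 measured genes of the resection machinery were not called. Mre11a, its nuclease, read 9.76, 10.09 and 10.01 in wt-/mt-, 9.78, 9.80 and 10.02 in wt-/mt+, 9.44, 9.71 and 9.85 in wt+/mt- and 9.74, 9.61 and 9.62 in wt+/mt+. Levels in wt-/mt- lay just above those in wt+/mt+ (change 0.30, SE 0.13, adjusted p = 0.123), while Rad50 and Nbn, its partners, changed by 0.17 and 0.02.

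The Fanconi pathway, which unhooks crosslinks between the strands, had 4 measured genes. After loss of both alleles 3 of them were called higher, as were 12.2% of all kept genes, and the difference was not tested. Fancd2, which with Fanci forms the clamp at the centre of the pathway, read 8.92, 8.89 and 9.29 in wt-/mt-, 8.56, 8.48 and 9.03 in wt-/mt+, 8.14, 7.98 and 8.46 in wt+/mt- and 8.26, 8.21 and 8.07 in wt+/mt+. Without overlap, wt-/mt- stood above wt+/mt- and wt+/mt+. Fancd2 was 1.81-fold higher in wt-/mt- than in wt+/mt+ (log2 change 0.86, SE 0.17, adjusted p = 0.00747) and 1.79-fold higher than in wt+/mt- (0.84, SE 0.17, adjusted p = 0.0114). Its second probe set gave 0.88 for the loss of both. That call held without each of the 12 arrays, but not with 1 weight per genotype (adjusted p = 0.0722).

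Fanci read 8.97, 8.34 and 8.77 in wt-/mt-, 8.45, 8.35 and 8.73 in wt-/mt+, 7.57, 7.80 and 8.45 in wt+/mt- and 8.08, 7.93 and 7.87 in wt+/mt+. The wt-/mt- arrays stood above wt+/mt+ but overlapped wt+/mt-. Fanci rose by 0.73 over wt+/mt+ (SE 0.22, adjusted p = 0.0372) and by 0.76 over wt+/mt- (SE 0.22, adjusted p = 0.0444). The first of these calls held in 4 of the 12 omissions of 1 array and the second in 2 of them, and over all 12 the changes ran from 0.60 to 0.91 and from 0.57 to 1.01.

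Fancg, a part of the core complex that ubiquitinates the clamp, read 7.11, 7.02 and 7.92 in wt-/mt-, 6.79, 6.29 and 6.36 in wt-/mt+, 6.82, 6.94 and 7.29 in wt+/mt- and 6.65, 6.47 and 6.40 in wt+/mt+. Here wt-/mt- lay above both genotypes that kept the mutant allele and overlapped wt+/mt-. Fancg rose by 0.84 over wt+/mt+ (SE 0.23, adjusted p = 0.0250) and by 0.87 over wt-/mt+ (SE 0.23, adjusted p = 0.0226). Its second probe set, of about the same brightness, gave -0.14 and -0.21 for these comparisons, so its probe sets disagree. The call against wt+/mt+ ended without any 1 of the wt+/mt+ arrays, and that against wt-/mt+ without wt-/mt+ replicate 2 or 3. In these omissions the changes ran from 0.79 to 0.92 against wt+/mt+ and from 0.78 to 0.81 against wt-/mt+.

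Fanca, another part of the core complex, read 9.61, 9.75 and 9.36 in wt-/mt-, 9.63, 9.59 and 9.52 in wt-/mt+, 9.59, 9.77 and 9.73 in wt+/mt- and 9.41, 9.62 and 9.63 in wt+/mt+. Its levels overlapped in all genotypes, with a change of 0.02 after loss of both alleles (SE 0.12, adjusted p = 0.913).

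Among the checkpoint genes, Chek1, the kinase that ATR activates at stalled forks, read 10.12, 9.72 and 10.25 in wt-/mt-, 9.51, 9.08 and 9.70 in wt-/mt+, 8.30, 8.59 and 9.37 in wt+/mt- and 9.34, 8.93 and 8.77 in wt+/mt+. Its highest levels were those of wt-/mt-, although replicate 2 of them barely exceeded the highest wt-/mt+ array. Chek1 was 2.03-fold higher in wt-/mt- than in wt+/mt+ (log2 change 1.02, SE 0.27, adjusted p = 0.0234) and 2.42-fold higher than in wt+/mt- (1.28, SE 0.27, adjusted p = 0.0126). Its 3 brightest probe sets gave 1.02, 1.22 and 1.00 for the loss of both. The first call ended without wt+/mt+ replicate 2, wt+/mt+ replicate 3 or wt-/mt- replicate 3 (0.90 to 0.98 in these omissions), and the second without wt+/mt- replicate 1 or 2 (1.05 and 1.20).

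Topbp1, the activator of ATR, read 11.69, 11.08 and 11.37 in wt-/mt-, 11.13, 10.90 and 11.50 in wt-/mt+, 10.86, 10.99 and 11.30 in wt+/mt- and 11.04, 11.01 and 10.71 in wt+/mt+. Its wt-/mt- arrays lay above wt+/mt+, and the change of 0.46 was not called (SE 0.19, adjusted p = 0.109). Clspn, the adaptor between ATR and Chek1, changed by 0.68 (SE 0.32, adjusted p = 0.141) and Chek2, the kinase downstream of ATM, by 0.29 (SE 0.12, adjusted p = 0.0932). The apex kinases Atm and Atr changed by -0.02 and 0.19, with adjusted p-values of 0.963 and 0.572.

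In non-homologous end joining, 0 of the 6 measured genes were called after loss of both alleles, and 1 had an unadjusted p under 0.05 in limma, beside the shares of 22.1% and 38.2% over all kept genes. Their median change was -0.02, against 0.56 in homologous recombination and 0.79 in the Fanconi genes. The Fanconi median rests on 4 genes, among them Fancg, whose second probe set gave -0.14. The 11 Fanconi genes outside the list had a median change of 0.22. Xrcc4, the scaffold of the ligase, read 8.10, 7.95 and 7.76 in wt-/mt-, 8.34, 8.56 and 8.63 in wt-/mt+, 8.12, 8.29 and 8.40 in wt+/mt- and 8.11, 8.27 and 8.16 in wt+/mt+. All wt-/mt- arrays lay below those of wt-/mt+. In that comparison Xrcc4 was 1.49-fold lower in wt-/mt- (log2 change -0.58, SE 0.12, adjusted p = 0.00879), and its second probe set gave -0.63. The call held without each of the 12 arrays and ended with 1 weight per genotype.

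Xrcc5, a subunit of the Ku ring that binds broken ends, read 9.67, 10.30 and 10.08 in wt-/mt-, 10.39, 10.43 and 10.59 in wt-/mt+, 10.40, 10.52 and 10.41 in wt+/mt- and 10.29, 10.30 and 10.31 in wt+/mt+. Its wt-/mt- arrays were below wt-/mt+ (log2 change -0.45, SE 0.14, adjusted p = 0.0436), a call that held in 2 of the 12 omissions of 1 array, and over all 12 the values ran from -0.60 to -0.28. Xrcc6, the other Ku subunit, read 10.20, 10.60 and 10.05 in wt-/mt-, 10.02, 10.09 and 10.27 in wt-/mt+, 9.98, 10.25 and 10.14 in wt+/mt- and 10.08, 10.12 and 10.17 in wt+/mt+. It overlapped throughout, with a change of 0.16 after loss of both (SE 0.14, adjusted p = 0.439). Prkdc, the kinase that Ku recruits, changed by 0.35 and Nhej1 by 0.19, neither called.

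Lig4, the ligase itself, was chosen for description after its values were seen. It read 10.71, 9.44 and 8.19 in wt-/mt-, 10.00, 9.64 and 9.43 in wt-/mt+, 9.30, 9.30 and 9.47 in wt+/mt- and 9.61, 9.68 and 9.64 in wt+/mt+. The wt-/mt- arrays held both the highest and the lowest value of the 12, a range of 2.52. Their SD of 1.26 ranked at percentile 97.9 among the SDs of all kept genes within wt-/mt-. The fitted change after loss of both was -0.20 (SE 0.46, adjusted p = 0.781), a mean of arrays that went both ways.

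Parp1, which detects strand breaks and builds poly(ADP-ribose) there, read 11.75, 11.25 and 11.52 in wt-/mt-, 11.61, 11.50 and 11.31 in wt-/mt+, 11.53, 11.38 and 11.26 in wt+/mt- and 11.70, 11.80 and 11.69 in wt+/mt+. The wt+/mt- arrays were below wt+/mt+ without overlap, but the change of -0.34 was not called (SE 0.14, adjusted p = 0.266), and the next 2 probe sets, of similar brightness, gave -0.10 and 0.03. Parp2 changed by -0.01 after loss of both alleles (SE 0.09, adjusted p = 0.954).

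Levels of the recombination and Fanconi genes were set beside lists of S phase and G2/M genes on the same arrays. Relative to the wt+/mt+ mean, the median of the 10 recombination genes was 0.72, 0.22 and 0.52 on the wt-/mt- arrays, 0.37, 0.19 and 0.48 on the wt-/mt+ arrays, -0.22, -0.26 and 0.28 on the wt+/mt- arrays and 0.02, -0.01 and -0.07 on the wt+/mt+ arrays. The median of 28 S phase genes was 0.76, 0.14 and 0.98 in wt-/mt-, 0.40, 0.15 and 0.62 in wt-/mt+, -0.49, -0.39 and 0.21 in wt+/mt- and 0.24, -0.07 and -0.18 in wt+/mt+. For 26 G2/M genes it was 0.96, 0.57 and 1.07 in wt-/mt-, 0.51, 0.34 and 0.74 in wt-/mt+, -0.26, -0.36 and 0.55 in wt+/mt- and 0.22, -0.06 and -0.15 in wt+/mt+. Within wt-/mt- these 3 medians were lowest on replicate 2, and within wt+/mt- they were lower on the 2 arrays with the high actin ratio than on replicate 3. The 4 Fanconi genes had medians of 0.67, 0.45 and 0.97 in wt-/mt- and 0.33, 0.17 and 0.37 in wt-/mt+. On wt+/mt- these medians stood near 0 on replicates 1 and 2, where both cell cycle lists were below 0, and at 0.38 on replicate 3. On replicates 1 and 2, Fancd2 (8.14 and 7.98) and Fanci (7.57 and 7.80) lay below their wt+/mt+ means of 8.18 and 7.96. Fanca (9.59 and 9.77) and Fancg (6.82 and 6.94) lay above theirs, 9.55 and 6.51. After loss of both alleles, 11 of 28 S phase genes and 18 of 26 G2/M genes were called higher and 0 of either lower, with median changes of 0.69 and 0.83. Of all kept genes, 12.2% were called higher and 9.94% lower. The part of cell cycle genes, and of the actin ratio, in the changes of the repair genes was not tested. The 6 end joining genes had medians of 0.10, 0.03 and -0.15 on the wt-/mt- arrays and between -0.04 and 0.20 on the other arrays.

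**Figure D4:**
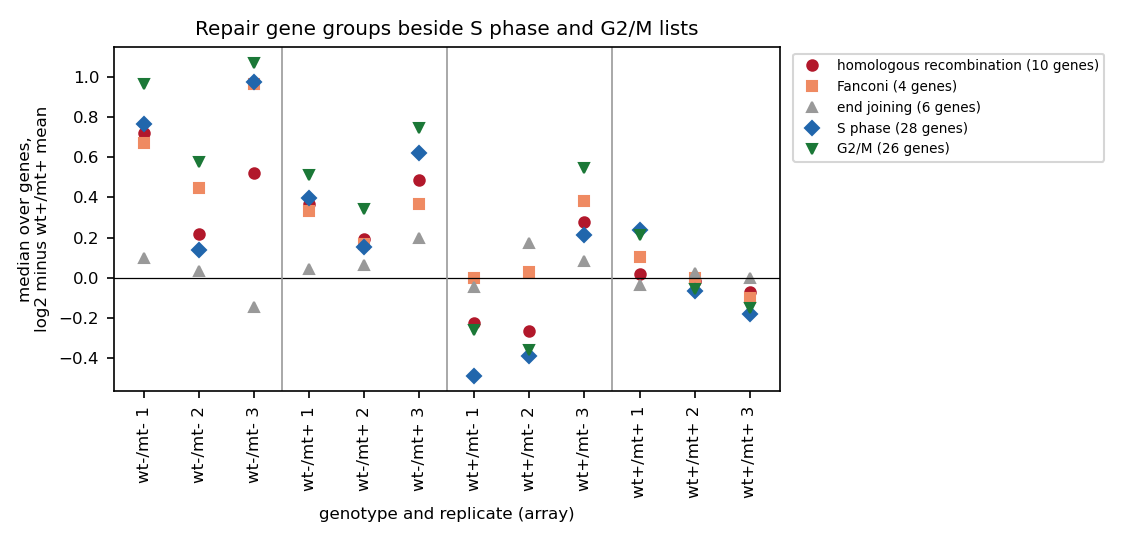
Median log2 difference from the wt+/mt+ mean on each of the 12 arrays, over the recombination, Fanconi and end joining genes and over lists of S phase and G2/M genes (symbols). Recombination genes and both cell cycle lists are above 0 on all wt-/mt- and wt-/mt+ arrays and below 0 on wt+/mt- replicates 1 and 2, where the Fanconi median is near 0. The end joining median stays between -0.15 and 0.20.

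With 1 allele left in place, no repair gene was called when the spread was shared among the genotypes. Loss of the mutant allele with the wild-type allele present (wt+/mt- against wt+/mt+) gave 0 calls of 38 in limma, where 0.183% of all kept genes were called. An unadjusted p under 0.05 was seen for 6 of the 38 (15.8%) and for 14.9% of all kept genes. Loss of the wild-type allele with the mutant allele present (wt-/mt+ against wt+/mt+) gave 0 calls in limma, where 0% of all kept genes were called. Here 8 of the 38 (21.1%) had an unadjusted p under 0.05, against 3.60% of all kept genes. Of the 38 changes, 33 (86.8%) were positive, against 61.6% over all kept genes. The 8 include Mgmt and Cdc14a, which were listed with earlier results of these arrays known. The median change in this comparison was 0.23 over the repair genes, 0.39 over the S phase list and 0.55 over the G2/M list. With 1 weight per genotype the counts became 3 in the first comparison and 1 in the second. The 3 were H2ax (0.52, adjusted p = 0.0241), Mgmt (-0.68, adjusted p = 0.0250) and Cdc14a (-0.26, adjusted p = 0.0436). The 1 was Cdc14a (0.37, adjusted p = 0.0384). The share of all kept genes called with these weights is not given here, so these counts have no background beside them. Without weights the Mgmt levels of both single losses did not overlap wt+/mt+, with changes of -0.68 in wt+/mt- (adjusted p = 0.0992) and 0.69 in wt-/mt+ (adjusted p = 1.00).

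Cells with the mutant allele alone were set against cells with the wild-type allele alone (wt-/mt+ against wt+/mt-), and 2 repair genes were called, where 0.0873% of all kept genes were, 10 genes in number. Mgmt was 2.60-fold higher in wt-/mt+ (log2 change 1.38, SE 0.16, adjusted p = 0.0393) and Cdc14a 1.54-fold higher (0.63, SE 0.08, adjusted p = 0.0403). By p they ranked 1 and 3 among all kept genes. Both were listed with earlier results of these arrays known, so neither this share nor these ranks are an independent finding about repair genes. Both calls ended when the 2 wt+/mt- arrays with the high actin ratio were left out. That omission leaves 1 wt+/mt- array, and the part of lost replication was not tested. The array left read 9.30 for Mgmt and 9.17 for Cdc14a, below the wt-/mt+ means of 10.62 and 9.73. The call of Mgmt held in 7 and that of Cdc14a in 4 of the 12 omissions of 1 array. The changes stayed between 1.24 and 1.51 for Mgmt and between 0.59 and 0.66 for Cdc14a over all 12 omissions.

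The interaction asks whether the loss of the wild-type allele had a different effect in cells without the mutant allele than in cells with it. It was called for 3.14% of all kept genes and for 2 of the 38, Mgmt (-2.10, SE 0.23, adjusted p = 0.00172) and Cdc14a (-0.99, SE 0.12, adjusted p = 0.00200). As both genes were listed with earlier results of these arrays known, their share among the 38 is no independent finding. For Mgmt the loss of the wild-type allele changed the level by -1.40 without the mutant allele and by 0.69 with it. For Cdc14a the changes were -0.62 and 0.37. H2ax had an interaction of 0.86 (SE 0.28, adjusted p = 0.137) and Xrcc4 one of -0.67 (SE 0.17, adjusted p = 0.0662). An F test for any difference among the 4 genotypes called 10 of the 38 genes, against 19.2% of all kept genes. These were Mgmt, Cdc14a, H2ax, Fancd2, Mdc1, Chek1, Xrcc4, Fancg, Rad54l and Rnf168. This count, too, includes the 2 genes listed with earlier results known.

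Repair genes outside the 41 were taken from textbook lists, whose counts after loss of both alleles stand beside 12.2% of all kept genes called higher and 9.94% called lower. Of 33 other recombination and end processing genes, 8 were called higher and 2 lower after loss of both alleles, with a median change of 0.34. The largest changes were those of Helq, a helicase (-1.32, SE 0.35, adjusted p = 0.0231), Rad51ap1, a partner of the recombinase (1.25, SE 0.27, adjusted p = 0.00997), and Eme1, part of a junction-cutting nuclease (1.15, SE 0.20, adjusted p = 0.00303). Of 22 other checkpoint genes 6 were higher and 0 lower, with the largest changes in Timeless, which protects replication forks (1.08, SE 0.17, adjusted p = 0.00184), Cdc25c, a mitotic phosphatase (0.81, SE 0.22, adjusted p = 0.0226), and Tipin, the partner of Timeless (0.77, SE 0.23, adjusted p = 0.0385). Of 11 other Fanconi genes 2 were higher, Fance (0.42) and Faap100 (0.35).

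The list of 19 other chromatin and end joining factors had 1 higher and 3 lower after loss of both alleles, with a median change of 0.12. In wt-/mt- against wt-/mt+ the list had 1 higher and 5 lower, beside 9.75% of all kept genes called higher and 11.1% called lower. In the second comparison Babam2 (-0.89, SE 0.24, adjusted p = 0.0249), Brcc3 (-0.75, SE 0.16, adjusted p = 0.00794) and Uimc1 (-0.53, SE 0.12, adjusted p = 0.0121) had the largest changes. These 3 genes encode parts of the complex that brings Brca1 to ubiquitin marks beside a break. Of 18 genes listed for base excision and single-strand breaks, 3 were higher and 2 lower after loss of both alleles, among them Neil1, a glycosylase (-1.88, SE 0.26, adjusted p = 0.000914), Parp3 (-1.25, SE 0.30, adjusted p = 0.0149) and Ogg1 (0.65, SE 0.18, adjusted p = 0.0240). Of 18 genes listed for nucleotide excision and direct reversal 2 were higher and 3 lower, and of 5 mismatch repair genes 0 were called in limma for any of the 3 comparisons with wt-/mt-.

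Promoter windows of 300 bases from RefSeq (GRCm38.p6), reaching from 250 bases before the annotated start to 50 after it, were found for 32 of the 38 genes. The E2F motif TTTNNCGC stood on either strand in at least 1 window of 9 of these 32 genes (28.1%), against 5.93% of 27025 genes and 5.17% of 32851 windows. The 9 genes are Brca2, Bard1, Rad51c, Chek2, Clspn, Topbp1, Fancg, Mdc1 and Xrcc6. The motif shares over all genes and windows also cover genes that were dim or not on the array. The 32 genes all passed the filter on dim genes, so the sets are unlike, and shares over kept genes alone were not computed. Of these 9, Fancg and Mdc1 were called after loss of both alleles, as were 28.9% of the 38 genes and 22.1% of all kept genes. A link between the motif and the calls was not tested. The forkhead motif GTAAACA was found for 1 gene, Brca2 (3.12%, against 4.05% of all genes and 3.65% of windows), and the core AAACA for 11 (34.4%, against 54.1% of all genes and 50.5% of windows). The CCAAT box, CCAAT, was found for 15 genes (46.9%, against 41.1% of all genes and 37.4% of windows). The cell cycle homology motif TTTGAA and the E-box CACGTG were each found for 3 genes (9.38%). TTTGAA was found for 20.2% of all genes and in 17.9% of windows, and CACGTG for 8.09% and in 7.15%.

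Stretches of 100 bases that hold the E2F match are shown for the 2 called genes, and for Brca2, whose stretch also holds the forkhead match. Capitals mark these matches, and GCGGGAAA is the E2F motif read from the opposite strand. Fancg lies at chr4:43010302-43010401 on the minus strand, Mdc1 at chr17:35841398-35841497 on the plus strand and Brca2 at chr5:150522371-150522470 on the plus strand. The Fancg and Mdc1 stretches end at the base before the start, and the Brca2 stretch begins 250 bases before it.
Fancg: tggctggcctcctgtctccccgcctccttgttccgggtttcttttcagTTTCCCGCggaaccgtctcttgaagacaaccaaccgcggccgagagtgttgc
Mdc1: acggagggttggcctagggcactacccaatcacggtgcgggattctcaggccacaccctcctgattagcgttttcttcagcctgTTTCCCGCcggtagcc
Brca2: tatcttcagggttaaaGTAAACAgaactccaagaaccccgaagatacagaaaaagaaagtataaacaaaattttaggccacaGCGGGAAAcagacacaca
A match is a description of the letters in a window, and binding was not measured.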

How the data were processed

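RNA of 12 Affymetrix mouse arrays, 3 per genotype, was compared. Per the submitters' processing notes the authors used RMA (version not given in the sources used here), and the deposited values are log2 levels of probe sets. RMA normalizes across arrays, so shifts shared by most genes are largely removed, and base 2 is assumed from RMA's habit and from the range of the values. Of 45101 probe sets, 34958 named 1 gene in the platform annotation, 932 named several and 9211 were unnamed here. Symbols were updated through RefSeq (GRCm38.p6), where 161 symbols were not matched. Each gene took its probe set of highest mean and was kept if above the array median on at least 3 arrays. limma 3.58.1 in R 4.3.3 fitted 1 mean per genotype over all 12 arrays (lmFit, eBayes), with Benjamini-Hochberg adjustment over 11458 genes, and the fit was tested on simulated data. Errors are limma SEs, or SDs over 3 arrays. The number of arrays limits the precision.

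The 41 genes and the other lists were chosen with earlier results of these data known. Values on every array are given for measured genes called in a comparison of 2 genotypes or the interaction, and for the uncalled gene of highest mean in each role. Other genes are Foxo1 and up to 3 called genes per list by size of change. Of all pairs of arrays, 0 were identical, and no array number is shared between genotypes. Alternatives covered normalization, filter, probe set, weights, the arrays fitted and the actin ratio as a covariate. Motifs were searched with Python 3.11.15 on both strands of RefSeq promoter windows, of which Rad54b, Rad50, Nbn, Fancd2, H2ax and Prkdc had none in the table used.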

Additional observations from a re-analysis of the deposited data

Results flagged for a closer look

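A difference in the effect of 1 change between 2 backgrounds was found for Mgmt and for Cdc14a. Loss of the wild-type allele changed Mgmt by -1.40 (log2) in cells without the mutant allele and by 0.69 in cells with it, and the test of that difference gave -2.10 (SE 0.23, limma adjusted p = 0.00172). For Cdc14a the changes were -0.62 and 0.37, and the difference was -0.99 (SE 0.12, limma adjusted p = 0.00200). For both genes the levels on the 3 arrays of each genotype did not overlap those of any other genotype. The arrays are not paired, so the difference has no value on a single array. The second probe set of Cdc14a gave -0.53 for this difference. Both genes were listed with earlier results of these arrays known.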

How the results depend on the processing

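Counts of called repair genes are given here where an alternative moved them by more than 1.5 times, and the cause was not tested. They stand without the share of all kept genes called in the same fit. Whether calls of repair genes moved more than those of other genes is thus not shown. With 1 weight per genotype, 3 genes were called after loss of both alleles (11 in the report), 3 in wt-/mt- against wt+/mt- (10), 3 in wt-/mt- against wt-/mt+ (6), 3 in wt+/mt- against wt+/mt+ (0), 1 in wt-/mt+ against wt+/mt+ (0) and 5 in wt-/mt+ against wt+/mt- (2). With only the 2 genotypes compared in the fit, which leaves fewer arrays to estimate the spread, these counts were 5, 1, 3 and 2 for the first 4 comparisons in that order. The second brightest probe set was used for the 23 of the 38 genes that have one, and the others kept their only probe set. With it, 6 genes were called after loss of both alleles, 6 in wt-/mt- against wt+/mt- and 1 in wt-/mt+ against wt+/mt-. The interaction had 1 call (2) and the F test 5 (10). These counts include genes whose values did not change, such as Mgmt and H2ax, so they are not counts from second probe sets alone. In that setting the sign turned for Cdc14a (0.073 after loss of both alleles, -0.035 in wt-/mt+ against wt+/mt-), Fancg (-0.14 after loss of both alleles, -0.21 in wt-/mt- against wt-/mt+), Fanci (-0.25 after loss of both alleles) and Rnf168 (-0.045 after loss of both alleles). With the actin ratio as a covariate, 2 genes were called in wt-/mt- against wt+/mt-, 0 in wt-/mt+ against wt+/mt- and 4 in the F test. Leaving out wt+/mt- replicates 1 and 2 together leaves 1 wt+/mt- array, so counts from that fit are not given. Centring per chromosome, and likewise the mean of all probe sets, left 1 call in wt-/mt+ against wt+/mt-.

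When 1 array was left out in turn, the counts ran from 4 to 19 after loss of both alleles, from 3 to 15 in wt-/mt- against wt+/mt-, from 4 to 7 in wt-/mt- against wt-/mt+, from 0 to 1 in wt+/mt- against wt+/mt+, from 0 to 3 in wt-/mt+ against wt+/mt-, from 2 to 4 in the interaction and from 4 to 17 in the F test. Of the 31 calls of single genes, 31 kept direction and threshold without wt-/mt- replicate 2 and 19 without wt+/mt+ replicate 2, the most and the fewest among the omissions. The calls of Mgmt and H2ax after loss of both alleles held under the alternatives run. Each of these genes has 1 probe set, so the alternatives on the probe set left their levels unchanged and could not test them. No paired analysis was possible because the labels share no array number between genotypes.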
